A study of Mus musculus with 10 samples.

Results

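Cell junction genes were compared between adult mouse retina and newborn mouse cortex. The set held 54 genes, of 13840 named on the array, taken by symbol alone: the connexins (Gja, Gjb, Gjc and Gjd), pannexins (Panx), claudins (Cldn), zonula occludens genes (Tjp), junctional adhesion molecules (Jam, F11r, Esam), Ocln, Marveld2, and the polarity genes Pard, Llgl, Patj, Mpp5 and Lin7. The rule left out Cldn11 and Crb1, and no other Crumbs gene was found. Of the 55 probes found, 1 stood for each gene, and the only gene with a second probe was Cldn10. The symbols Crbn, a ubiquitin ligase substrate receptor, and Cldnd1, a distant claudin relative, met the rule by prefix only (Crb and Cldn) and were kept apart as a group of 2, which left 52 junction and polarity genes.

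Transcripts were measured on 10 single-channel Applied Biosystems arrays as part of a comparison of array platforms. The retina RNA was from a pool of 350 adult C57/B6 mice (5 arrays) and the cortex RNA from a pool of 19 mice at postnatal day 1 (5 arrays), given as C57/B6 in the sample descriptions and as Swiss-Webster in the series text. The retina age is that of the descriptions and the series text, while the titles of the retina arrays contain P1, whose meaning there is not given. The arrays of a tissue repeated 1 pool, so the p-values below measure the spread between arrays and not between animals, and tissue cannot be told apart from age, nor from strain if the series text is right. Levels are log2 intensities after quantile normalization, differences are retina minus cortex on that scale, and a probe was called when limma's Benjamini-Hochberg adjusted p over all 33012 probes fell below 0.05 with a difference of 2-fold or more.

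Before normalization the retina arrays had median intensities of 835.5 to 986.7 and the cortex arrays of 1255 to 1341. As a check of the labels, all 4 measured rod markers were higher in retina (Prph2 by 10.84, Pde6b by 10.80) and all 4 cortical neuron markers were lower (Neurod6, -7.76). No detection calls were used. A mean was therefore called dim when it lay below the 95th percentile of the 846 probes named for olfactory receptors, 10.97 for retina means and 11.05 for cortex means. Differences of marker genes are given as measured, also where 1 tissue was dim. By this yardstick 26 of the 54 genes (48.1%) were dim in both tissues, against 40.4% of all probes with 1 gene symbol. Nothing can be read from a missing call among these.

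Gap junctions are channels between neighbouring cells. Each cell contributes a half-channel of connexins, and in neurons these channels form electrical synapses, which in the retina couple photoreceptors, horizontal cells, amacrine cells and ganglion cells. Pannexins resemble connexins but mostly form channels in a single membrane that release ATP. Tight junctions seal the space between epithelial or endothelial cells: claudins and occludin span the membrane, and zonula occludens proteins anchor them to the cytoskeleton. The Par, Crumbs and Scribble modules set which side of a cell is apical, and in the retina the Crumbs complex sits at the outer limiting membrane, where Müller glia and photoreceptors meet.

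The starts of 4 connexin genes are shown because they had the largest called differences as measured in each direction, with the bases before the annotated start of the gene, 5′ to 3′ on the gene's strand, from RefSeq's table for mouse build GRCm38.p6. Gjd2 and Gja10 were higher in retina, and Gja1 and Gjb6 lower. Capitals mark matches, on either strand, to TAATCC (the core bound by CRX and OTX2, homeodomain factors of photoreceptors and bipolar cells), GGGCGG (the GC box) or TATAAA (the TATA box).
Gjd2, chr2:114013620-114013869, minus strand: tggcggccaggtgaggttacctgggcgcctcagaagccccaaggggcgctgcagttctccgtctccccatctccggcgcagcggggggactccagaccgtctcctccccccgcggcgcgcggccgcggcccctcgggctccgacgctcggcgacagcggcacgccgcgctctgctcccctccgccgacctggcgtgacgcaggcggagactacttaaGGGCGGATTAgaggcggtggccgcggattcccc
Gja10, chr4:32602383-32602632, minus strand: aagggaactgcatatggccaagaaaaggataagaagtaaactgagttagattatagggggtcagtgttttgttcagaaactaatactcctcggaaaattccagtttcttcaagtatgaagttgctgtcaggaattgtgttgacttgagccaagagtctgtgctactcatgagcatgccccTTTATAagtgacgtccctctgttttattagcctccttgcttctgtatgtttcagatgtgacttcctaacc
Gja1, chr10:56377050-56377299, plus strand: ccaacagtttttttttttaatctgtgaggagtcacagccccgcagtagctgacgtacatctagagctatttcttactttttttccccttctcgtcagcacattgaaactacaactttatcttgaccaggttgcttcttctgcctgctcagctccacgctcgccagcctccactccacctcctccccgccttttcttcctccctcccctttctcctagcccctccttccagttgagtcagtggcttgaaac
Gjb6, chr14:57133612-57133861, minus strand: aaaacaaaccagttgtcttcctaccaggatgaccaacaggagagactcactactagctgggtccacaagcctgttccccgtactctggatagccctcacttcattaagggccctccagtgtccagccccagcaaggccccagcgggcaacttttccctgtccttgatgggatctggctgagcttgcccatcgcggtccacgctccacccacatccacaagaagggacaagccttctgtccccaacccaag

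The Gjd2 window held 33 CG dinucleotides and was 74% G or C, whereas that of Gja10 held 2 and was 41.2% G or C. Those of Gja1 and Gjb6 lay between, with 6 and 5 CG dinucleotides. In Gjd2 a GC box began 33 bases before the start and overlapped a TAATCC match on the opposite strand that began 29 bases before it. Gja10 had a TATA box match 70 bases before the start, on the opposite strand. Neither Gja1 nor Gjb6 held any of these letters in the window, which says nothing of the factors themselves. Among the members, 40 genes had such a window, 59 windows in all, each 250 bases long. TAATCC was found in 1 of the 59 (1.69%), that of Gjd2, against 6.25% of all 32851 windows in the table. GGGCGG was found in 28 (47.5%) against 32.7% of all, and TATAAA in 8 (13.6%) against 12.4%. These matches are descriptions of the letters, not binding sites.

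Of the 54 genes, 11 were called higher in retina (20.4%, where 12.1% of all probes were) and 9 were called lower (16.7%, where 13.3% of all probes were). Among probes with 1 gene symbol those shares were 14.1% and 14.8%. The 20 calls made up 37% of the set, where 25.4% of all probes were called in either direction. The 34 others were not called, and the median difference over the 54 was -0.18, against -0.01 for all probes. The 5 values of one tissue did not overlap the 5 of the other in 26 genes (48.1%, against 40.5% of all probes). Among the 28 genes that were not dim in both tissues, 7 were higher, 8 lower and 13 not called. The share called among all probes that were not dim in both tissues was not computed. Without normalization the median of all probes shifted to -0.41 and the members' calls became 7 higher and 16 lower (7.49% and 23.1% of all probes). Of the members' calls, 30.4% were then toward retina in place of 55%. Over all probes that share was 24.5% in place of 47.6%. With 200 added before the log, 8 members were higher, where 10.3% of all probes were, and 8 lower, where 11.3% were. With no fold minimum 15 were higher and 15 lower, where 22.5% and 25.0% of all probes were. A fit on probes above the median of all probes in at least 1 tissue kept 34 members, of which 9 were higher and 8 lower, where 19.3% and 20.9% of its probes were. The balance of directions therefore moved with the scaling, while none of the 20 called genes changed sign under any alternative run.

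**Figure D1:**
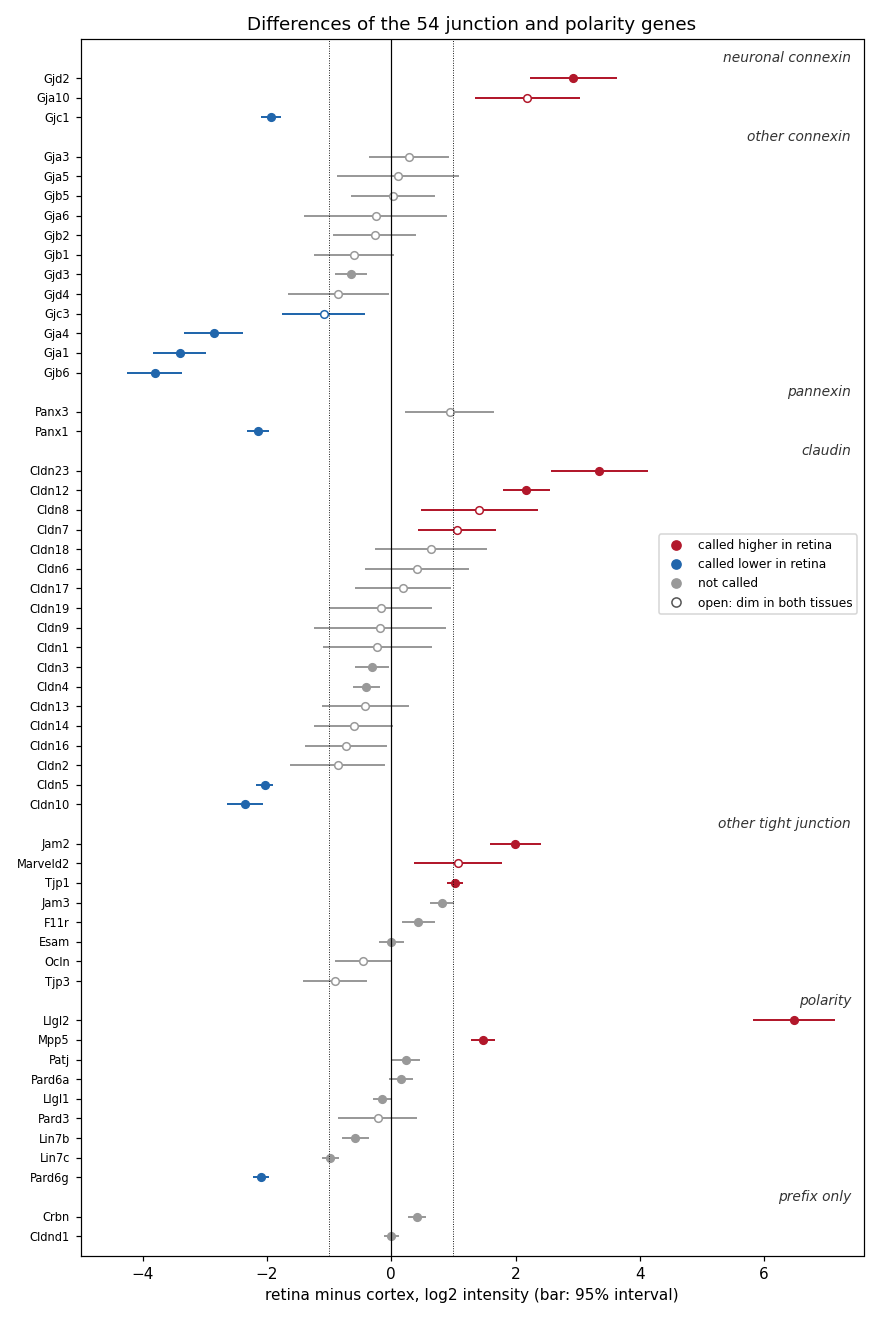
Difference between retina and cortex (log2 intensity, horizontal axis) for each of the 54 genes, grouped by role, with 95% intervals from limma on 5 arrays per tissue. Red marks genes called higher in retina, blue lower and grey not called, open points are dim in both tissues, and dotted lines mark a 2-fold difference. Llgl2 stands apart at 6.48, and the points for Gjb6 (-3.81), Gja1 (-3.41) and Gja4 (-2.86) rest on dim retina signal.

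The neuronal connexins divided by gene. Gjd2, which encodes Cx36, the main connexin of electrical synapses between neurons, was higher in retina. Gja10, which encodes the horizontal cell connexin Cx57 of the mouse, was higher as well, though its signal was dim. Gjc1, which encodes Cx45, used by some bipolar and ganglion cells and also by vascular and developing tissues, was 3.83-fold lower.

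On the retina arrays Gjd2 (probe 645940) read 11.48, 11.48, 11.56, 11.66 and 11.57, against 9.24, 7.37, 8.28, 9.28 and 8.95 on the cortex arrays. The retina values were tight and all lay above the scattered cortex values, every one of which was in the dim range. The difference was 2.93 (SE 0.32, limma with Benjamini-Hochberg adjusted p = 5.99e-07). Set against the cortex dim limit instead of the dim cortex values, the retina mean was only 0.50 higher, so the size of the fold depends on signal not shown to lie above background.

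Gja10 read 11.05, 10.33, 9.16, 9.56 and 9.87 on the retina arrays, against 7.80, 7.31, 7.85, 8.62 and 7.44 on the cortex arrays. The tissues did not overlap, but only retina array 1 passed the dim limit. Its difference was 2.19 (SE 0.39, limma adjusted p = 0.000144). Markers of horizontal cells moved the same way: all 4 measured were higher in retina, led by Prox1 (1.91) and Calb1 (1.58), with a summed log2 intensity of 50.54 to 52.58 in retina and 45 to 45.7 in cortex. Of the 4, 1 was dim in both tissues, and its arrays overlapped between tissues. Markers of bipolar cells (3 of 3 higher, summed 48.73 to 49.3 in retina and 25.06 to 29.27 in cortex) and amacrine cells (4 higher and 1 lower of 6, summed 84.35 to 85.47 in retina and 74.71 to 76.05 in cortex) moved the same way too. Their part in the connexin differences was not tested, and in bulk RNA fewer cells of a type and less RNA per cell cannot be told apart.

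Gjc1 went the other way, from bright signal in both tissues. It read 12.66, 12.51, 12.54, 12.43 and 12.32 in retina, against 14.44, 14.48, 14.51, 14.32 and 14.39 in cortex. The groups lay far apart for their spread, with a difference of -1.94 (SE 0.068, limma adjusted p = 2.03e-13).

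No other connexin was higher in retina. Of the 12 that are known mainly from glia, vessels, lens, skin or other tissues, 8 were not called, and 8 were dim in both tissues. The 4 called were all lower, where 13.3% of all probes were called lower. The 3 clear ones were Gjb6 and Gja1, which encode Cx30 and Cx43, the connexins of astrocyte networks, and Gja4, which encodes Cx37 of vascular endothelium.

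Gjb6 read 8.04, 8.08, 8.11, 8.08 and 8.27 in retina, against 11.82, 12.07, 11.79, 11.93 and 12 in cortex. Each retina value was dim and each cortex value was above the limit. The difference as measured was -3.81 (SE 0.20, limma adjusted p = 4.82e-11), and -0.96 with the retina dim limit in place of the dim retina values. Gja1 read 8.93, 10.21, 9.36, 9.90 and 9.67 in retina, against 12.97, 13.10, 13.21, 12.88 and 12.94 in cortex, a difference of -3.41 (SE 0.20, limma adjusted p = 1.31e-10). With the retina dim limit in place of its dim retina values, the difference of Gja1 was -2.05.

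Gja4 read 8.82, 9.43, 8.54, 9.68 and 9.21 in retina, against 12.06, 11.81, 11.97, 12.12 and 12.03 in cortex, a difference of -2.86 (SE 0.22), or -1.03 with the retina dim limit. As for Gjb6 and Gja1, its retina signal was dim on all 5 arrays, and the tissues did not overlap. Gjc3, which encodes Cx29 of myelinating glia, averaged 7.39 ± 0.16 on the retina arrays and 8.48 ± 0.52 on the cortex arrays (SD, n = 5), dim in both. Its call (-1.08, SE 0.31, limma adjusted p = 0.00711) was lost without cortex replicate 2 (-0.95), with median scaling (-0.92), with 200 added before the log (-0.61) and in limma's test against 1.5-fold (adjusted p = 0.214).

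Glial and vascular markers did not all follow the glial and vascular connexins. Of the 5 astrocyte markers listed 2 were measured: Aldh1l1 was lower in retina (-1.75) and Pax2 was dim in both tissues, with a summed level of 21.28 to 22.78 in retina and 22.9 to 24.68 in cortex. Müller glia markers were higher in 4 of 6 cases and lower in none, led by Abca8a (5.02) and Car14 (4.90), at 101.06 to 101.23 summed in retina and 85.23 to 86.99 in cortex. All 6 fibroblast and meninges markers were lower, at 60.48 to 63.25 summed in retina and 82.08 to 82.87 in cortex, led by Col3a1 (-6.53) and Ogn (-3.05). The part of these cells in the lower Gja1 and Gjb6 signal was not tested. Neural progenitor markers were lower in 2 of 4 cases (Fabp7, -6.80, and Hes5, -1.27) and higher in none, at 51.46 to 51.88 summed in retina and 60.06 to 61.27 in cortex. The 9 endothelial markers were mixed (4 higher, 2 lower and 3 not called), at summed levels of 105.03 to 109.65 in retina and 101.48 to 104.3 in cortex. Of the 2 lower, only 1 was not dim in both tissues.

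Among connexins that were not called, Gjd3, which encodes Cx30.2 of the mouse, was the 1 that was not dim in both tissues, with means of 11.82 ± 0.22 for retina and 12.47 ± 0.15 for cortex (SD, n = 5). Its arrays did not overlap between tissues, but the difference of -0.65 was under the 2-fold minimum. It passed without normalization (-1.07). The other 7 were dim in both tissues. They were Gja3, the lens fibre connexin gene (0.28), Gja5 of arterial endothelium (0.11), Gjb5 of skin (0.02), Gja6 of testis (-0.25), Gjb2 (-0.27), Gjb1 of myelinating glia (-0.60) and Gjd4 (-0.85). Gjd4 passed without retina replicate 5 (-1.09) and without normalization (-1.33). Of 5 measured oligodendrocyte markers, 2 were lower (Olig1, -4.41, and Olig2, -1.21) and the myelin genes Mag and Mog were dim in both tissues, with a summed level of 45.73 to 50.3 in retina and 52.83 to 53.94 in cortex.

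Panx1, the widespread neuronal pannexin, was 4.42-fold lower in retina. It read 11.59, 11.33, 11.57, 11.38 and 11.44 in retina, against 13.66, 13.68, 13.57, 13.56 and 13.55 in cortex. The difference of -2.14 (SE 0.077, limma adjusted p = 2.4e-13) was many times the spread of either tissue. Panx3, known from bone and skin, was dim in both tissues and averaged 9.46 ± 0.59 on retina arrays and 8.52 ± 0.17 on cortex arrays (SD, n = 5). Its difference of 0.94 was not called, and without retina replicate 5 it passed at 1.15.

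**Figure D2:**
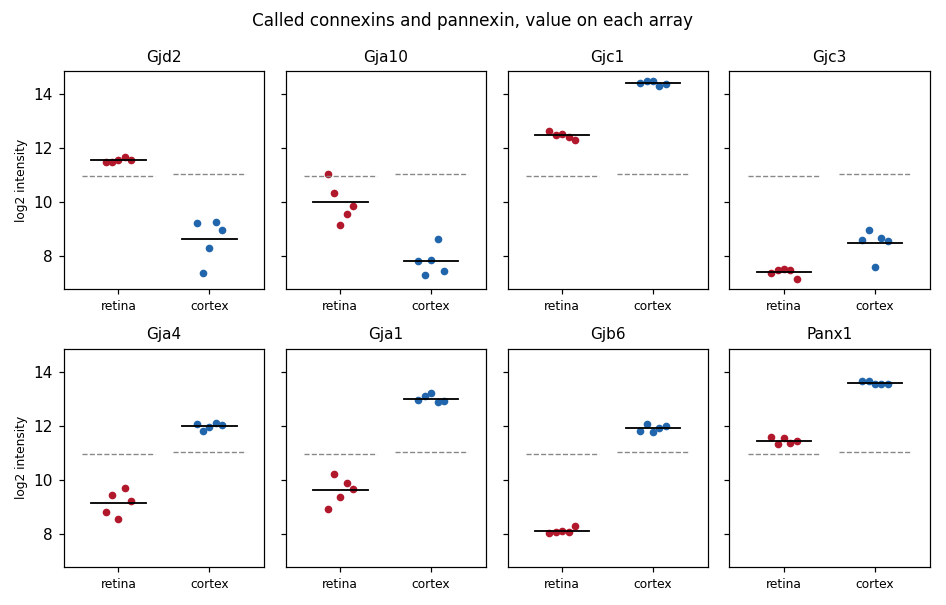
Log2 intensity on each array (points, retina left and cortex right) of the 7 called connexins and Panx1, with the tissue mean as a black line and the dim limit of each tissue as a dashed line. Gjd2 and Gja10 lie higher in retina, and the cortex values of Gjb6, Gja1 and Gja4 lie above the limit while their retina values lie below it.

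Claudins were mostly faint. Of 18, 12 were dim in both tissues, and their median difference was -0.20. Of the 18, 4 were called higher and 2 lower, where 12.1% and 13.3% of all probes were, and 12 were not called. Clear signal was found in both tissues only for Cldn3, Cldn4 and Cldn5, in retina alone for Cldn23 and Cldn12, and in cortex alone for Cldn10.

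Cldn5, the barrier claudin of brain and retinal endothelium, read 13.89, 13.89, 14.03, 13.90 and 13.72 in retina, against 15.84, 15.90, 15.96, 15.95 and 15.95 in cortex. The values were tight in both tissues and were 4.1-fold lower in retina, a difference of -2.03 (SE 0.055, limma adjusted p = 7.07e-15). Esam, an adhesion molecule gene that is likewise typical of endothelium, read 12.51, 12.64, 12.58, 12.50 and 12.52 in retina, against 12.41, 12.55, 12.46, 12.82 and 12.51 in cortex. Its values overlapped fully, with a difference of 0.00 (95% interval -0.18 to 0.18). Of the other members known from endothelium, Gja4 was lower, Jam2 was higher and Gja5 was dim in both tissues. In the endothelial marker list Slc2a1 (2.59) and Slco1a4 (2.38) were higher, and Cdh5 (-1.39) and Tek (-1.32) were lower. The retina mean of Slco1a4 lay 1.80 above the cortex dim limit. Cdh5 was dim in both tissues with overlapping arrays, and Tek differed by -0.19 with the retina dim limit. Pericyte markers were lower in 2 of 6 cases (Cspg4, -3.12, and Rgs5, -1.05), at 56.89 to 63.24 summed in retina and 62.18 to 65.96 in cortex. Cspg4 differed by -1.11 with the retina dim limit, and 3 of the 6 were dim in both tissues. Whether vessel content moved Cldn5 was not tested.

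Cldn10, whose product forms ion-selective pores in kidney, was the only member with a second probe, and both probes were lower in retina. The brighter probe (348339) read 10.04, 10.07, 9.94, 10.48 and 10.18 in retina, against 12.51, 12.45, 12.36, 12.53 and 12.65 in cortex. Its difference was -2.36 (SE 0.13, limma adjusted p = 8.26e-11). The second probe (362550) differed by -1.89 (SE 0.22), with means of 9.63 ± 0.45 for retina and 11.52 ± 0.23 for cortex (SD, n = 5). Retina was dim at both probes, and with the retina dim limit the brighter probe differed by -1.53.

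Cldn23 and Cldn12 were the claudins with clear signal in retina only. Cldn23, a claudin gene known from intestinal epithelium, read 12.03, 12.05, 12.14, 12.05 and 11.99 in retina, against 7.66, 8.85, 7.72, 9.54 and 9.76 in cortex. Retina was even across arrays and cortex was scattered in the dim range, with a difference of 3.35 (SE 0.36, limma adjusted p = 4.26e-07), or 1.00 from the cortex dim limit. Cldn12, whose product lacks the usual tail for binding zonula occludens proteins, read 11.51, 11.71, 11.72, 11.76 and 11.67 in retina, against 9.46, 9.57, 9.27, 9.84 and 9.37 in cortex. It differed by 2.17 (SE 0.17, limma adjusted p = 8.37e-09), or by 0.63 from the cortex dim limit.

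The remaining claudin calls came from dim signal in both tissues. Cldn8, a barrier claudin gene of the distal nephron, averaged 9.29 ± 0.95 on retina arrays and 7.87 ± 0.47 on cortex arrays (SD, n = 5), with retina array 4 at 8.06, inside the cortex range of 7.09 to 8.27. Its difference of 1.42 (SE 0.44, limma adjusted p = 0.0124) lost its call without normalization (0.99), with 200 added (0.96) and in the test against 1.5-fold (limma adjusted p = 0.137). Cldn7, of epithelial cells, averaged 9.84 ± 0.41 on retina arrays and 8.79 ± 0.19 on cortex arrays (SD, n = 5). The call of its difference of 1.05 (SE 0.29, limma adjusted p = 0.00568) was lost without retina replicate 1 (0.97) or 5 (0.95), without normalization (0.55), with 200 added (0.80) and in the test against 1.5-fold (limma adjusted p = 0.215).

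Cldn4 and Cldn3, both typical of epithelia, were bright in both tissues and were not called. Cldn4 averaged 14.59 ± 0.23 on retina arrays and 14.99 ± 0.14 on cortex arrays (SD, n = 5). Cldn3 averaged 13.07 ± 0.30 on retina arrays and 13.38 ± 0.15 on cortex arrays (SD, n = 5). For both, the arrays of the tissues overlapped, and Cldn4 and Cldn3 differed by -0.40 (95% interval -0.60 to -0.20) and by -0.31 (95% interval -0.57 to -0.06). The 10 claudins that were dim in both tissues and not called ran from 0.64 for Cldn18, of stomach and lung, to -0.86 for Cldn2, a pore-forming claudin gene of choroid plexus and kidney. Cldn19, of kidney and pigment epithelium (-0.17), Cldn1 of epidermis (-0.22), Cldn14 of the inner ear (-0.60), Cldn16 of kidney (-0.72), Cldn6 (0.42), Cldn9 (-0.18), Cldn13 (-0.42) and Cldn17 (0.19) lay between. Cldn2 passed without cortex replicate 4 (-1.04) or 5 (-1.04), and Cldn2 (-1.39) and Cldn16 (-1.22) passed without normalization.

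Markers of pigment and surface epithelium, lens and choroid plexus were set beside the claudins that were higher. Of 7 retinal pigment epithelium markers, 4 were higher, led by Rgr (7.29) and Rpe65 (6.81), and Best1, Mitf and Tyr were dim in both tissues, with a summed level of 81.25 to 84.14 in retina and 54.98 to 58.92 in cortex. Of 6 surface epithelium markers, 3 were higher (among them Krt18, 5.17, and Krt5, 2.61), 1 was lower (Epcam, -1.60, dim in both) and 2 were not called. Of the 3 higher, 2 were not dim in both tissues: the retina mean of Krt18 was 4.68 and that of Krt5 only 0.004 above the cortex dim limit. Summed levels were 67.89 to 68.92 in retina and 58 to 61.34 in cortex. Of 5 lens markers, 3 crystallin genes were higher and Mip and Bfsp1 were dim in both, summed 61.56 to 65.7 in retina and 41.96 to 45.21 in cortex. Of 5 choroid plexus markers, 4 were higher (among them Aqp1, 4.79) and Ttr was lower (-1.38), summed 69.14 to 71.25 in retina and 61.62 to 63.9 in cortex. Of the 4 higher, 2 were not dim in both tissues. The part of these tissues in Cldn23, Cldn12, Cldn8, Cldn7, Marveld2 or Llgl2 was not tested.

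Of the 8 other tight junction genes, 3 were higher, where 12.1% of all probes were, 0 were lower and 5 were not called, and their median difference was 0.63. Without normalization Jam2 (1.53) kept its call, Marveld2 and Tjp1 lost theirs, and Tjp3 was called lower. Jam2 encodes a junctional adhesion molecule of endothelium and other cells and was higher. It read 12.14, 12.43, 12.27, 12.40 and 12.09 in retina, against 10.35, 10.97, 10.14, 9.78 and 10.10 in cortex, a difference of 2.00 (SE 0.19, limma adjusted p = 7.33e-08). All 5 cortex values were dim, and the retina mean lay 1.22 above the cortex dim limit.

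Tjp1, the gene of the scaffold ZO-1, which binds claudins and also Cx36 and Cx43, was just past the 2-fold minimum. It read 14.48, 14.49, 14.32, 14.38 and 14.49 in retina, against 13.47, 13.37, 13.37, 13.38 and 13.40 in cortex. Bright and even in both tissues, it differed by 1.03 (SE 0.053, limma adjusted p = 2.82e-11). Without normalization the difference was 0.65, under the minimum. Marveld2, the gene of tricellulin, a protein of the corners where 3 cells meet, was dim in both tissues and averaged 10.03 ± 0.59 on retina arrays and 8.96 ± 0.38 on cortex arrays (SD, n = 5). Its difference of 1.08 (SE 0.33, limma adjusted p = 0.0115) lost its call without retina replicate 5 (0.82), the one array at 11.06, and without cortex replicate 4 (0.94). It also lost it without normalization (0.57), with 200 added (0.84) and in the test against 1.5-fold (limma adjusted p = 0.259).

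The junctional adhesion molecule genes Jam3 and F11r were above cortex on all 5 retina arrays but by less than 2-fold. Jam3 averaged 13.27 ± 0.14 on retina arrays and 12.45 ± 0.11 on cortex arrays (SD, n = 5). It differed by 0.82 (95% interval 0.64 to 0.99) and passed in the test against 1.5-fold (limma adjusted p = 0.0244). F11r differed by 0.44 (95% interval 0.19 to 0.69), and by -0.01 without normalization. Ocln, the occludin gene (-0.45), and Tjp3, the gene of the epithelial scaffold ZO-3 (-0.91), were dim in both tissues. Tjp3 passed without retina replicate 4 (-1.04) and without normalization (-1.40).

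Llgl2 showed the largest difference in the set. It encodes one of a pair of mammalian homologues of the fly tumour suppressor lethal giant larvae, which acts on the basolateral side against atypical protein kinase C, and is known mainly from epithelia. Llgl2 (probe 927329) read 15.17, 15.26, 15.44, 15.29 and 15.46 in retina, against 10.35, 8.51, 8.97, 8.03 and 8.37 in cortex. Retina was bright and even, and all 5 cortex values were dim, with cortex array 1 above the other 4. The difference was 6.48 (SE 0.30, limma adjusted p = 8.39e-12), and the retina mean lay 4.28 above the cortex dim limit. Its paralogue Llgl1 read 13.13, 13.08, 12.94, 13.03 and 13.07 in retina, against 13.20, 13.16, 13.32, 13.13 and 13.18 in cortex. The tissues met at 13.13, and the difference was -0.15 (95% interval -0.28 to -0.01, limma adjusted p = 0.0671).

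The Crumbs complex genes did not move as 1 unit. Mpp5 encodes Pals1, which ties Crumbs to Patj, and was 2.78-fold higher in retina. It read 13.16, 13.38, 13.34, 13.51 and 13.28 in retina, against 11.89, 11.67, 11.82, 12 and 11.91 in cortex, a difference of 1.47 (SE 0.085, limma adjusted p = 1.43e-10) with no overlap. Patj was bright in both tissues and was not called. It averaged 16.51 ± 0.28 on retina arrays and 16.28 ± 0.09 on cortex arrays (SD, n = 5) and differed by 0.23 (95% interval 0.02 to 0.45). The Lin7 genes, whose products bind Pals1 and also serve at synapses, were below cortex on every retina array. Lin7c read 15.86, 15.88, 16.11, 15.81 and 15.97 in retina, against 16.90, 16.93, 16.81, 16.94 and 16.97 in cortex, a difference of -0.98 (SE 0.057, limma adjusted p = 1.38e-10), just short of 2-fold. Lin7c passed the minimum without retina replicate 3 (-1.03) or cortex replicate 3 (-1.01), without normalization (-1.39) and in the test against 1.5-fold (limma adjusted p = 1.16e-05). Lin7b differed by -0.58 (95% interval -0.78 to -0.38) and just reached the minimum without normalization.

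The Par genes were split as well. Pard6g and Pard6a encode adaptors that join atypical protein kinase C to Cdc42, and 1 of the pair was lower in retina. Pard6g read 13.53, 13.75, 13.58, 13.74 and 13.69 in retina, against 15.80, 15.72, 15.83, 15.69 and 15.73 in cortex. With tight values in both tissues it was 4.28-fold lower, a difference of -2.10 (SE 0.054, limma adjusted p = 3.39e-15). Pard6a was not called. It averaged 14.53 ± 0.15 on retina arrays and 14.38 ± 0.15 on cortex arrays (SD, n = 5) and differed by 0.16 (95% interval -0.02 to 0.33). Pard3, the scaffold that recruits the Par complex to junctions, was dim in both tissues (-0.22).

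**Figure D3:**
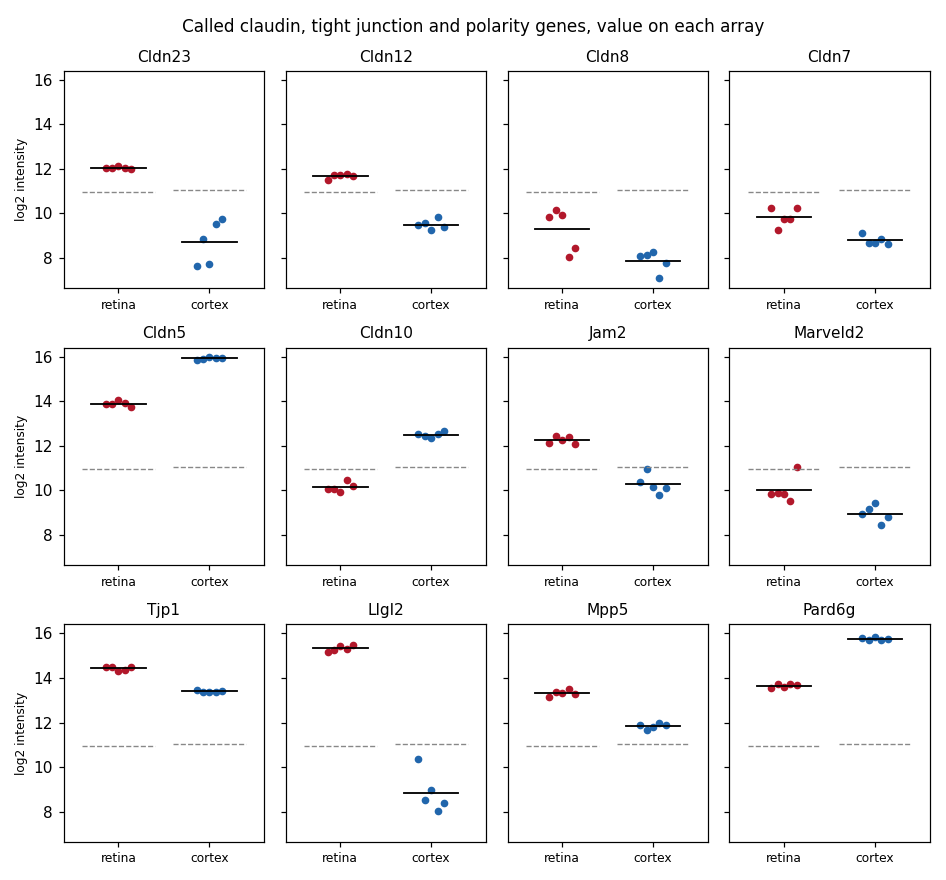
Log2 intensity on each array (points, retina left and cortex right) of the 12 called claudin, tight junction and polarity genes, with tissue means as black lines and dim limits as dashed lines. Llgl2 is near 15.33 in retina and in the dim range in cortex, while Cldn5 and Pard6g are bright in both tissues and lower in retina.

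**Figure D4:**
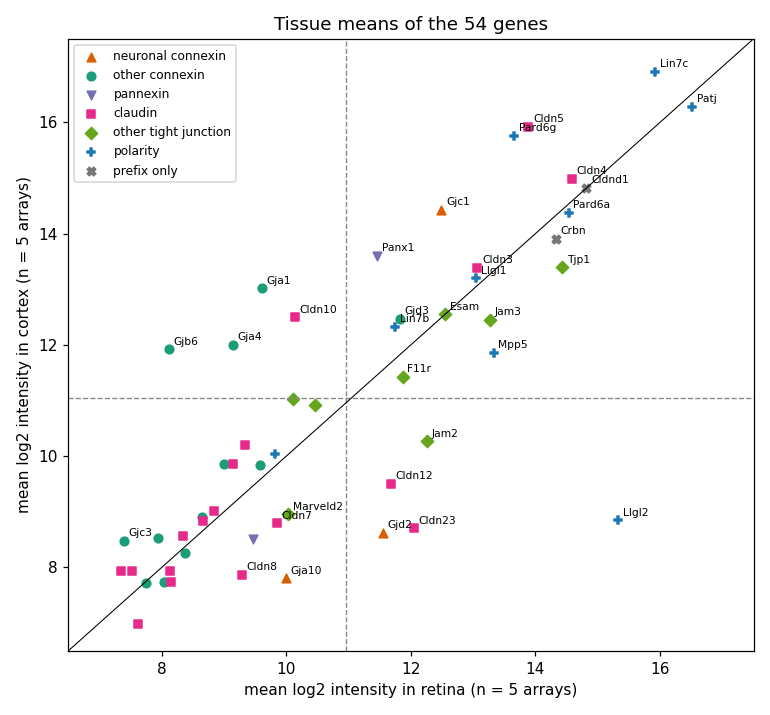
Mean log2 intensity of each of the 54 genes in retina (horizontal) and cortex (vertical), with the dim limits dashed and equal levels as a diagonal; marker shape gives the role, and genes that were called or were not dim in both tissues are named. The lower left corner holds the 26 genes that were dim in both tissues, among them 12 claudins.

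Dim genes varied more between arrays. Among the 26 genes dim in both tissues, the median SD over 5 arrays was 0.49 in retina and 0.51 in cortex. Of these 26, 5 were called, where 43 of the 846 olfactory receptor probes were. Among the 28 others the median SD was 0.13 in retina and 0.11 in cortex, and 15 were called. No share of all probes of like brightness was computed, so these counts are not read as a trait of the set. The prefix-only symbols were bright and not called: Cldnd1 differed by 0.00 (95% interval -0.10 to 0.10) and Crbn by 0.41 (95% interval 0.28 to 0.55).

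Other genes of the same junctions were set beside the members. Of 14 measured adherens junction genes, 2 were higher and 8 lower, where 12.1% and 13.3% of all probes were, and 4 were not called, with a median difference of -1.05. Of the 8 lower, 2 (Cdh1 and Nectin1, named after their values were seen) were dim in both tissues. The placental cadherin gene Cdh3 (1.56, SE 0.18, or 0.55 from the cortex dim limit) and the alpha-catenin gene Ctnna1 (1.37, SE 0.088) were higher. Nectin3, an adhesion molecule gene (-2.53, SE 0.070), and Ctnnd2, the delta-catenin gene of neurons (-1.84, SE 0.050), led those that were lower, and the beta-catenin gene Ctnnb1 was not called (-0.50). Of 14 polarity kinase, GTPase and Scribble module genes, 1 was higher, 2 lower and 11 not called. The scaffold gene Dlg1 was higher (1.57, SE 0.062), the kinase gene Mark1 (-2.17, SE 0.11) and the GTPase gene Rac1 (-1.08, SE 0.051) were lower, and Scrib was at 0.04 (SE 0.053). Of 13 membrane-associated scaffold genes, 5 were higher, 3 lower and 5 not called. Mpp4, a relative of Mpp5 that is known from photoreceptors, was higher by 10.69 as measured (SE 0.39) and by 8.41 from the cortex dim limit. Epb41l5, whose product binds Crumbs, was higher by 2.87 as measured (SE 0.22) and by 1.22 from that limit, since cortex was dim for both. Cxadr, a tight junction receptor gene (-2.10, SE 0.12), and Cask (-1.32, SE 0.14) were lower, with dim retina signal (-2.03 and -1.15 with the retina dim limit), and Mpp6 was at -0.99 (SE 0.066).

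**Figure D5:**
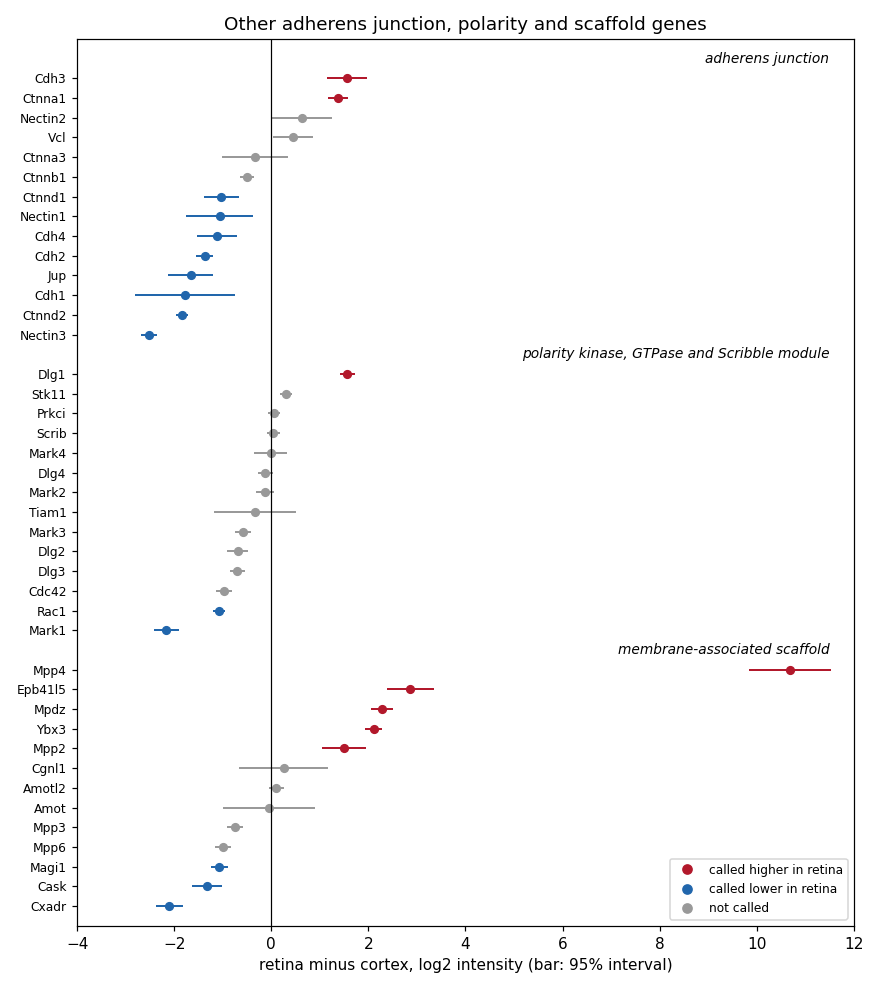
Difference between retina and cortex (log2 intensity, horizontal axis) with 95% intervals for 41 genes of adherens junctions, polarity modules and membrane-associated scaffolds that are not members of the set (red called higher in retina, blue lower, grey not called). Mpp4 lies far to the right at 10.69, with dim cortex signal, and 8 of 14 adherens junction genes were called lower.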

How the data were processed

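The series matrix values of 10 arrays were used, 5 per tissue. Per the labels' protocols, cRNA carrying digoxigenin was made from 1 µg of total RNA (TRIzol) and read by chemiluminescence. The authors deposited linear intensity values for 33012 probes; background correction, normalization and detection calls are not given in the sources used here. Groups and replicate numbers came from the sample titles.

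Values were put on the log2 scale and quantile-normalized, which forces 1 distribution on all arrays. Symbols came from the platform annotation (14411 probes with 1 symbol, 247 with several, 18354 unnamed); all 54 members matched RefSeq by Entrez ID and 0 symbols changed. The probe with the highest mean log2 of the deposited values stood for a gene. Retina and cortex were compared with limma 3.58.1 in R 4.3.3 (intensity trend, no covariates), 2-sided, over all probes. The fit was tested on simulated data.

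The members, lists and tests were chosen with earlier results of these data known. Named by rule were the called members (up to 4 per role and direction), the brightest not called, and up to 2 genes per direction from each list, 1 more if not called; all other members are named with their differences. Same-numbered arrays did not deviate together (correlations of -0.02 to 0.03), so the numbers were not taken to pair arrays. Precision is limited by the array number, and with 1 pool per tissue it does not cover the spread between animals. Alternatives changed the normalization, offset, dim filter, threshold, trend, block, probe and arrays used.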

Additional observations from a re-analysis of the deposited data

Results flagged for a closer look

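Of the 108 groups of 5 arrays (54 genes in 2 tissues), 6 held an array flagged by Dixon's test. In these, the array's gap to its nearest neighbour, divided by the range of the 5 values, exceeded the 95% critical value of 0.71. Chance flags about 1 in 20 groups, or 5.4 here, and the 6 fell on 6 different arrays. Retina array 1 read 10.10 for Gjb2, against 9.40 to 9.48 on the other 4 retina arrays. Retina array 2 read 7.53 for Gjb1, against 7.98 to 8.15. Retina array 5 read 11.06 for Marveld2, against 9.54 to 9.88, and the gene's call was lost without it. Cortex array 2 read 9.05 for Cldn6, against 7.21 to 7.62. Cortex array 4 read 13.63 for Cldn3, against 13.26 to 13.37, and cortex array 1 read 13.47 for Tjp1, against 13.37 to 13.40, gaps that are small beside the brightness of these probes. No explanation was tested.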

How the results depend on the processing

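Under 19 other settings, 36 of the 54 genes kept their call or lack of one wherever they were tested. Among them were 15 of the 20 called genes, and 23 kept their sign as well. The fit without probes under the median in both tissues tested only 34 members. The sign changed under at least 1 setting in 14 genes (Gja3, Gja5, Gja6, Gjb5, Cldn1, Cldn9, Cldn17, Cldn19, F11r, Esam, Patj, Pard6a, Llgl1 and Cldnd1), all among those not called. The other 5 (Gjc3, Cldn8, Cldn7, Marveld2 and Tjp1) lost the call under at least 1, and 13 genes that were not called gained one, 10 of them with no fold minimum. The count of 11 higher and 9 lower became 7 and 16 without normalization and 15 and 15 with no fold minimum. Leaving out 1 array gave 10 to 11 higher and 8 to 10 lower. With the replicate number as a block the counts were 11 and 9 and no member's call changed. Median scaling gave 11 and 8, the offset 8 and 8, the 1.5-fold test 9 and 9, no intensity trend 11 and 9, the lower Cldn10 probe 11 and 9, and the fit without probes under the median in both tissues 9 and 8. The cause of these shifts was not tested. Without detection calls, dim signal limits what can be read from 26 of the genes.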
